A study of Mus musculus with 2 samples.

Results

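The let-7 axis is described here by 10 genes: Lin28a, Lin28b, Dicer1, Hmga1, Hmga2, Igf2bp1, Igf2bp2, Igf2bp3, Arid3a and Arid3b. They were chosen by symbol, as the Lin28 genes, Dicer1 and widely described let-7 targets, and all 10 had a row among the 24421 rows of the count table. Total RNA of untreated ovaries, taken from C57BL/6J mice at 8 weeks of age and on regular chow, was sequenced to find genes that H19 regulates in this organ. There was 1 library from wild-type (WT) mice and 1 from knockout (H19KO) mice whose allele is labelled H19(Δ3), and how many mice each holds is not given. Without replicates there is no p-value, and what follows compares 1 library with the other.

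let-7 is a family of microRNAs that pair through a short seed with messenger RNAs, mostly in the 3′ untranslated region (3′UTR), and lower their stability and translation. LIN28A and LIN28B bind let-7 precursors and block their maturation, and LIN28A recruits enzymes that tail them for decay. LIN28 and let-7 thus hold each other in check. DICER1 cuts the precursor to the mature microRNA. H19, an imprinted long noncoding RNA, has been described as binding let-7 and limiting its action on targets such as HMGA2, DICER1 and IGF2BP3. In the mouse ovary, DICER1 is needed for oocyte maturation and for corpus luteum function.

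The family is set by its seed, bases 2 to 8 of the mature strand, which is in capitals here, and the sequences are shown because every target match below is the reverse complement of the shared seed. Of 11 mature forms listed by RefSeq on GRCm38.p6, 10 shared this seed, and let-7j had another.
let-7a: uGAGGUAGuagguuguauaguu
let-7d: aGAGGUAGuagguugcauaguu
let-7g: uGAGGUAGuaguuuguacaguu
miR-98: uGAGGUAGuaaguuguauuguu
let-7j: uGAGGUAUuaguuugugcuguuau

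The reverse complement of the seed, CTACCTC, was searched on the transcript strand of the longest 3′UTR that GENCODE M21 gives for each gene on GRCm38, the build also called mm10. It occurred 20 times in the 3′UTRs of 9 of the 10 genes, and 10 of the 20 matches were followed by A, which makes the 8-base match CTACCTCA. Over all 21103 annotated protein-coding genes with a 3′UTR, 10.1% held at least 1 match. Members had long 3′UTRs, with a median of 2895 bases against 1086. Among the 9561 genes with a 3′UTR between the shortest and the longest of the members, 1183 and 6337 bases, 15.9% held a match. The members were picked as known targets, so their excess of matches follows from the choice. A match is a description of the sequence and does not show that let-7 acts there.

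Hmga2, Lin28b and Igf2bp1 held 4 matches each, and 12 of all the annotated genes held 4 or more. Lin28a and Arid3a held 2, and Igf2bp2, Igf2bp3, Arid3b and Hmga1 held 1. In Hmga2 the matches began at bases 58, 1295, 1733 and 2591 after the stop codon, so they were spread over its 3′UTR of 3014 bases. In Lin28b they began at bases 36, 2410, 2582 and 3998 of 4445, and in Igf2bp1 at 1715, 4136, 4730 and 5353 of 6337. The first match of both Hmga2 and Lin28b thus lay close to the stop codon and was one of 8 bases, whereas those of Igf2bp1 all lay farther downstream. Both matches of Lin28a were of 8 bases, at 909 and 1547 of 2775, and the single ones of Igf2bp2 and Igf2bp3 were also of 8 bases. Those of Arid3b and Hmga1 were of 7 bases. The match of Hmga1 rests on the choice of 3′UTR, since its transcript with the longest coding sequence held 0 there. The stretches below, all in annotated 3′UTR exons, are those of Hmga2 and Lin28a, measured in both libraries, and the first 8-base match of each other member that has one. They run 5′ to 3′ on the transcript strand, and capitals mark the match.
Hmga2 match 1, chr10:120364218-120364247, minus strand: cgccgacattcaatttCTACCTCAgcatca
Hmga2 match 2, chr10:120362981-120363010, minus strand: tccccactcctcaataCTACCTCtgaatgc
Hmga2 match 3, chr10:120362543-120362572, minus strand: cctgatttgcaaggaaCTACCTCcacactt
Hmga2 match 4, chr10:120361685-120361714, minus strand: caatcaaaacacactaCTACCTCttaagtc
Lin28a match 1, chr4:134005183-134005212, minus strand: tgcacagcctgttgaaCTACCTCAtttttg
Lin28a match 2, chr4:134004545-134004574, minus strand: tgagatcgccacaaacCTACCTCActgtgt
Lin28b match 1, chr10:45381016-45381045, minus strand: cacccgggcgggaagtCTACCTCAtgcaag
Igf2bp1 match 1, chr11:95961772-95961801, minus strand: tgctgtgcgaagtaaaCTACCTCAaggtgt
Igf2bp2, chr16:22059467-22059496, minus strand: aacacacaaataaaagCTACCTCAggtgtt
Igf2bp3, chr6:49086781-49086810, minus strand: gtgcatttttactcaaCTACCTCAggtatt
Arid3a match 1, chr10:79953894-79953923, plus strand: caaggcaagtttctttCTACCTCAggtctt

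Dicer1 was the member with no match in its 3′UTR of 3851 bases. Its coding sequence of 5718 bases held 4 matches, of which 3 were 8-base matches. At least 1 coding match was found in 13.1% of annotated genes, and 4 or more in 15 genes. These genes were not matched for coding length, and Dicer1 has the longest coding sequence of the members. Arid3a held 2 coding matches, 1 of them of 8 bases, Arid3b held 1 of 8 bases and Lin28b 1 of 7. The 3 exonic 8-base matches of Dicer1 are shown because its matches were all in coding sequence.
Dicer1 coding match 2, chr12:104702798-104702827, minus strand: atacctgtacaaccaaCTACCTCAtatccc
Dicer1 coding match 3, chr12:104702690-104702719, minus strand: gggaacgctaacacatCTACCTCAgatgga
Dicer1 coding match 4, chr12:104694690-104694719, minus strand: gagatgcgattttggaCTACCTCAtaacca

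**Figure D1:**
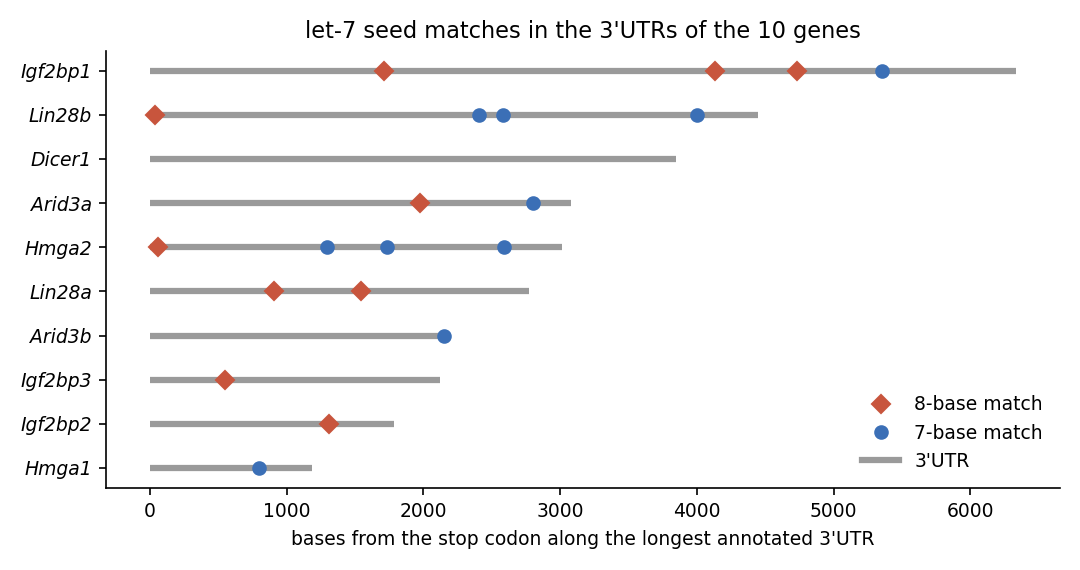
Matches of the let-7 seed along the longest annotated 3′UTR of each gene, drawn to scale in bases from the stop codon. Grey bars are 3′UTRs, diamonds are 8-base matches and circles are 7-base matches; Hmga2, Lin28b and Igf2bp1 hold 4 each and Dicer1 holds none.

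The libraries held 23335131 counts in WT and 23041225 in H19KO, so 1 count was worth 0.0430 and 0.0432 units of relative abundance (CPM, counts for each 1000000 in the library after TMM scaling). The deleted gene, H19, gave 672 counts in WT and 0 in H19KO. With 3 counts as the most that a 0 allows, it was at least 223-fold lower in H19KO. Ovarian markers were present in both libraries, including all 15 oocyte markers and all 12 granulosa markers examined. A gene was called measured when its mean reached 1 CPM, which 13928 rows did. Each ratio of knockout to wild type is given as log2 with a 95% exact binomial interval, which holds counting error alone, so spread between mice or preparations is not in it.

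None of the measured let-7 axis genes differed between the 2 libraries beyond counting error. Of the 10 genes 7 were measured: Dicer1, Igf2bp2, Arid3a, Arid3b, Hmga2, Igf2bp3 and Lin28a. All 7 intervals spanned 0 and lay within 2-fold, with 4 point ratios above 0 and 3 below. Over all measured genes 46.2% had an interval wholly above or below 0, 22.2% above and 24.0% below. Intervals wholly above 2-fold were found for 0.61% of genes and wholly below it for 0.388%. The share depends on depth: it was 25.4% for genes of 1 to under 5 CPM, which holds 4 of the members, 42.0% from 5 to under 50 CPM, which holds 2, and 60.2% from 50 to under 500 CPM, which holds Dicer1. The median log2 ratio of the 7 members was 0.02, against -0.01 for all measured genes. Log2 ratios of the members ran from -0.25 to 0.12, and 6 of the 7 lay between the lower and upper quartiles of all measured genes, -0.16 and 0.14. In RNA from a whole organ, fewer cells of a type and less RNA per cell cannot be told apart.

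**Figure D2:**
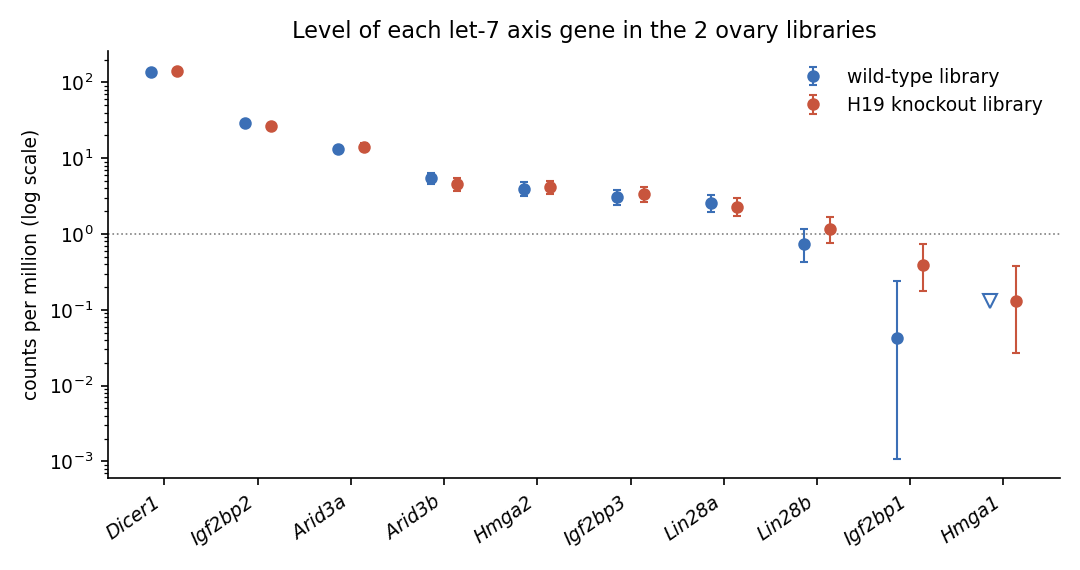
Level of each of the 10 genes in CPM, on a log axis, in the wild-type (blue) and knockout (red) libraries, with 95% Poisson intervals of the counts. The dotted line marks 1 CPM, and the open triangle marks the 3 counts that the count of 0 for Hmga1 allows; paired points lie close together for the 7 measured genes.

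Dicer1, which encodes the endonuclease that makes the mature microRNA from its precursor, was the most abundant member and the most precisely measured. The gene (chromosome 12, 104687742 to 104751952, minus strand) had 3208 counts in WT and 3233 in H19KO, or 138 and 140 CPM. The counts differed by less than counting error, with a log2 H19KO/WT of 0.02 (-0.05 to 0.09). On the linear scale the interval ran from 0.965 to 1.06 times the WT value.

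The Lin28 genes encode RNA-binding proteins with a cold shock domain and zinc knuckles that block let-7 maturation, and both are known from embryonic and germ line cells. Lin28a (chromosome 4, 134003330 to 134018841, minus strand) had 59 counts in WT and 53 in H19KO, a log2 H19KO/WT of -0.15 (-0.71 to 0.41). With so few counts the interval reaches from 0.611 to 1.33 times the WT value. Lin28b (chromosome 10, 45376620 to 45486395, minus strand) had 17 and 27 counts, 0.731 and 1.17 CPM. Its mean of 0.949 CPM lay just under the minimum, and its log2 ratio of 0.66 had a wide interval (-0.25 to 1.64). Counts of the pair summed to 76 and 80, a log2 H19KO/WT of 0.08 (-0.39 to 0.55).

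Of the Hmga genes, which encode small chromatin proteins with AT-hooks that bind the minor groove of AT-rich DNA, only Hmga2 was measured. Hmga2 (chromosome 10, 120361275 to 120476469, minus strand) had 91 counts in WT and 96 in H19KO, or 3.91 and 4.15 CPM. The log2 ratio of this gene, which has more 3′UTR matches than any other measured member, was 0.08 (-0.34 to 0.51). A separate row for the pseudogene Hmga2-ps1 had 45 and 64 counts, with an interval that also spanned 0 (-0.06 to 1.10). The pseudogene is not in the gene models used here, so the sequence it shares with Hmga2 was not tested. Hmga1 (chromosome 17, 27556497 to 27563674, plus strand) had 0 and 3 counts, both at or under the floor, so no ratio is given. Of the windows of 76 bases, the read length, in Hmga1 transcripts, 46.6% are shared with other annotated genes. How reads that match several places in the genome were counted is unknown, so these counts are not taken as a measure of the level of Hmga1.

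Igf2bp1, Igf2bp2 and Igf2bp3 encode RNA-binding proteins that control the stability, transport and translation of bound messages, among them that of Igf2. Igf2bp2 (chromosome 16, 22059009 to 22163299, minus strand) had 673 counts in WT and 617 in H19KO, or 28.9 and 26.7 CPM. The H19KO value was slightly lower, but the log2 H19KO/WT of -0.12 had an interval that reached above 0 (-0.28 to 0.04). Igf2bp3 (chromosome 6, 49085223 to 49214957, minus strand) had 71 and 77 counts, a log2 H19KO/WT of 0.12 (-0.36 to 0.61). Malsu1 overlaps Igf2bp3 on the opposite strand and shares 17.8% of its 76-base windows. Malsu1 had 222 and 284 counts, a log2 H19KO/WT of 0.36 (0.10 to 0.62), and the strand setting of the counting is unknown. Its part in the Igf2bp3 counts was not tested.

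Igf2bp1 (chromosome 11, 95957163 to 96005940, minus strand) was nearly undetected, with 1 count in WT and 9 in H19KO. The ratio of CPM was 9.05, with a counting interval of 1.25 to 397 that excluded equality. With 0.5 added to each count, as for the other genes, the ratio was 6.36, or 2.67 on the log2 scale, and with 5 added the log2 ratio was 1.23. Of 20382 genes with a count in either library, 16.1% had an interval wholly above 0. The mean of 0.216 CPM lay well under the minimum, and the count of 1 in WT means that a few reads set this ratio. Summed over the 3 genes, the family had 745 and 703 counts, a log2 H19KO/WT of -0.08 (-0.23 to 0.07).

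Arid3a and Arid3b encode DNA-binding proteins with an AT-rich interaction domain. Arid3a (chromosome 10, 79927043 to 79955018, plus strand) had 304 counts in WT and 325 in H19KO, a log2 H19KO/WT of 0.10 (-0.13 to 0.33). Arid3b (chromosome 9, 57790353 to 57836793, minus strand) had 126 and 105 counts, the lowest ratio of the measured members at -0.25 (-0.64 to 0.13). The 2 genes leaned in opposite directions within counting error, and their sums were equal at 430 counts in each library. Opposite-strand genes share a small part of some members: Gm17231 shares 3.42% of the 76-base windows of Arid3b, and Gm13061 4.09% of those of Lin28a. Lin28b, Igf2bp2 and Arid3a share none with another annotated gene.

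**Figure D3:**
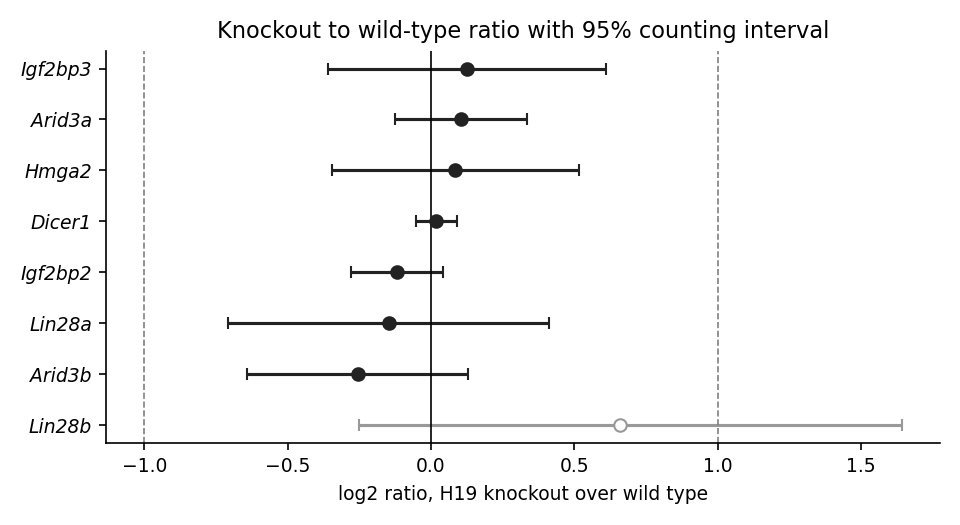
Log2 ratio of knockout to wild type for the 7 measured genes (black) and for Lin28b, just under the minimum (open grey), with 95% exact binomial intervals. Dashed lines mark 2-fold; the 7 black intervals span 0 and lie within the dashed lines.

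**Figure D4:**
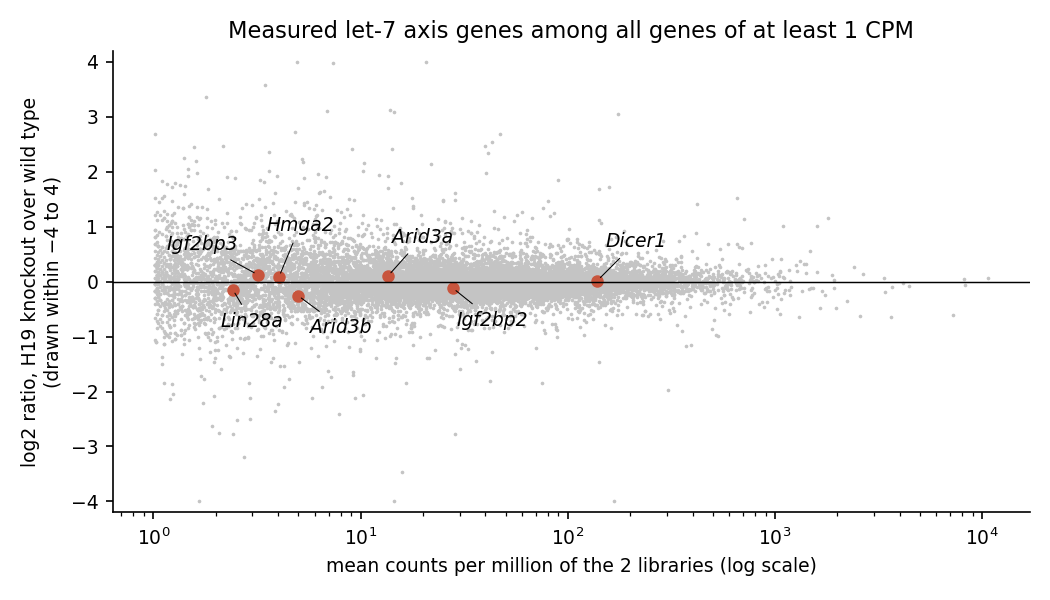
Log2 ratio against mean CPM (log axis) for the 13928 measured genes (grey) and the 7 measured let-7 axis genes (red). Ratios beyond 4 in size are drawn at the edge; the red points lie inside the grey cloud at every level, between -0.25 and 0.12.

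Levels were compared between genes after division by the length of merged exons, in CPM per kilobase. Dicer1 was highest, at 8.24 in WT and 8.35 in H19KO, followed by Igf2bp2 at 3.91 and 3.60 and Arid3a at 2.35 and 2.53. These 3 were separated from each other, and from the rest, by more than their counting intervals in both libraries. Arid3b, Lin28a, Hmga2 and Igf2bp3 came next, between 0.374 and 0.679 in WT and between 0.408 and 0.613 in H19KO, and neighbours among these 4 overlapped. Lin28b followed at 0.0807 and 0.129, below the interval of Igf2bp3 in each library. Igf2bp1 was lower again, at 0.00444 and 0.0402, below the interval of Lin28b in each library. Hmga1 was not placed, since its counts are not taken as a measure of its level. The first 3 places and the place of Lin28b were the same in the 2 libraries.

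The let-7 genes themselves gave almost no counts. The libraries were made from fragmented total RNA and not as a small RNA preparation, and mature let-7 was not measured. Rows were found for 11 let-7 precursors and Mir98, and 6 of these 12 had 0 counts in both libraries: Mirlet7a-1, Mirlet7a-2, Mirlet7b, Mirlet7c-2, Mirlet7f-2 and Mir98. The highest were Mirlet7c-1 with 5 and 2 counts in WT and H19KO and Mirlet7e with 3 and 2. Mirlet7f-1, Mirlet7d, Mirlet7g and Mirlet7i had 0 to 2 counts in each. Of transcripts that carry a let-7 gene, Mir99ahg, which spans let-7c-1, had 133 and 155 counts, a log2 H19KO/WT of 0.23 (-0.11 to 0.57). The host genes Huwe1 and Wdr82, a ubiquitin ligase and a subunit of a histone methyltransferase complex, had log2 ratios of -0.06 (-0.09 to -0.03) and -0.13 (-0.19 to -0.07).

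Genes for proteins that make or use microRNAs with Dicer1 differed in both directions by small amounts. Of 10 microRNA processing genes, 1 had an interval above 0, 4 below and 5 spanning it, with a median log2 ratio of -0.04. That is 5 of 10 off 0, against 46.2% over all measured genes. At 50 to under 500 CPM, where most of the 10 lie, the share was 60.2%. Drosha and Dgcr8, the nuclease and the RNA-binding subunit of the Microprocessor, went opposite ways. Drosha had 2808 counts in WT and 3217 in H19KO, a log2 H19KO/WT of 0.20 (0.13 to 0.28), and Dgcr8 had 1661 and 1362, one of -0.28 (-0.38 to -0.17). Khsrp, a splicing regulator that also promotes let-7 maturation, had 2510 and 1968 counts, a log2 H19KO/WT of -0.34 (-0.43 to -0.26). Of 8 genes of the silencing complex 1 lay above 0, 2 below and 5 spanned it, with a median of 0.01. That is 3 of 8 off 0 against the same 46.2% and 60.2%, and most of the 8 also lie at 50 to under 500 CPM. The Argonaute genes Ago2 and Ago3 had log2 ratios of -0.16 (-0.24 to -0.08) and 0.30 (0.18 to 0.42), and the scaffold gene Tnrc6b one of -0.02 (-0.08 to 0.04). No interval of these 2 lists lay wholly beyond 2-fold.

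Enzymes through which LIN28 acts are part of a list of genes for precursor tailing and decay, and all of the list were present in both libraries. Of the 6 genes of this list, 1 had an interval above 0, 4 below and 1 spanning it, and the median log2 ratio was -0.13. The 4 below include Papd4 and the let-7 target Trim71, so they are not all enzymes through which LIN28 acts. Over all measured genes 22.2% lay above 0 and 24.0% below, and of those at 50 to under 500 CPM, where 5 of the 6 lie, 60.2% lay off 0. Zcchc11, the terminal uridylyl transferase TUT4, had 6459 counts in WT and 5953 in H19KO, a log2 H19KO/WT of -0.11 (-0.16 to -0.06). Its relative Zcchc6, or TUT7, had 3526 and 3608 counts, and its ratio of 0.04 spanned 0 (-0.03 to 0.11). Papd4, a poly(A) polymerase that acts on microRNAs, and Trim25, a cofactor of let-7 uridylation, had ratios of -0.23 (-0.33 to -0.12) and 0.13 (0.04 to 0.22). Trim71, the vertebrate homologue of lin-41 and a classic let-7 target, had the lowest ratio among the measured genes of the pathway lists, H19 aside. It had 47 counts in WT and 22 in H19KO, a log2 H19KO/WT of -1.07 (-1.89 to -0.33), so its interval lay below 0 but not wholly beyond 2-fold. Its 3′UTR held 4 matches, all of 8 bases. Markers of oocytes were lower in H19KO as well: of 15 oocyte markers 14 were measured, 9 had an interval below 0 and none above, with a median of -0.33, and their summed level was 471 CPM in WT and 373 in H19KO. Their part in the Trim71 value was not tested.

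Other genes described as let-7 targets leaned lower in H19KO by small amounts. Of 30 such genes, all measured, 13 had an interval below 0, 2 above and 15 spanning it, against 24.0% below and 22.2% above for all measured genes. The median log2 ratio was -0.09, and no interval lay wholly beyond 2-fold. Mycn, a transcription factor of the Myc family, had 722 and 471 counts, a log2 H19KO/WT of -0.61 (-0.78 to -0.44). The integrin subunit gene Itgb3 had one of -0.51 (-0.58 to -0.44), and the most abundant of the list, the matrix protein gene Thbs1, one of -0.22 (-0.25 to -0.20). On the higher side, Prtg, a cell surface protein gene of the immunoglobulin superfamily, had 81 and 135 counts, a log2 H19KO/WT of 0.74 (0.34 to 1.16), and Myc had one of 0.23 (0.15 to 0.31).

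In that list, genes with and without a match had similar medians. Of the 30 genes 22 held a match in the 3′UTR, of which 9 had an interval below 0 and 1 above, with a median log2 ratio of -0.09. Of the 8 without a match 4 lay below 0 and 1 above, with a median of -0.07. Mycn, Thbs1 and Myc, named above, are among these 8, whereas Itgb3 and Prtg held a match. Over all measured genes 24.0% of intervals lay below 0 and 22.2% above, and at 50 to under 500 CPM 60.2% lay off 0. Markers of ovarian cell types also differed between the libraries. Granulosa markers had 10 of 12 intervals below 0 and 1 above, and a summed level of 5448 CPM in WT and 4173 in H19KO. Stroma and smooth muscle markers had 8 of 8 intervals above 0, and a summed level of 2887 and 3771 CPM. No marker of these 2 lists was at 0 in either library, and their part in the values of the list was not tested.

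Transcripts that Igf2bp proteins are known to bind included the largest differences of the pathway lists, at the H19 locus itself. Of 7 such genes 3 had an interval above 0, 1 below and 3 spanning it, with a median log2 ratio of 0.06. That is 4 of 7 off 0, where all measured genes had 46.2%, but the 4 include H19, whose call was fixed by the genotype. Apart from H19, the growth factor gene Igf2 had 275 counts in WT and 632 in H19KO, a log2 H19KO/WT of 1.21 (1.00 to 1.42). Actb, which encodes beta-actin, had one of 0.06 (0.04 to 0.07), and the adhesion receptor gene Cd44 one of 0.06 (-0.07 to 0.20). H19 is the deleted gene and Igf2 its imprinted neighbour on the same chromosome.

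Across the whole table, the median ratio varied little with the number of let-7 matches. Of the 12999 measured genes with an annotated 3′UTR, 11443 had no match and a median log2 ratio of -0.01, with 22.8% of intervals above 0 and 24.3% below. The 1348 genes with 1 match also had a median of -0.01, with 21.6% above and 25.1% below. The 183 genes with 2 matches had a median of -0.03, with 22.4% above and 29.0% below. The 25 genes with 3 or more matches, Hmga2 among them, had a median of 0.02, with 2 intervals above 0 and 3 below. The classes also differed in length, since the median 3′UTR rose from 1260 bases without a match to 4457 with 3 or more. They differed in depth too, with a median of 31.7 CPM without a match and 15.2 CPM with 3 or more.

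**Figure D5:**
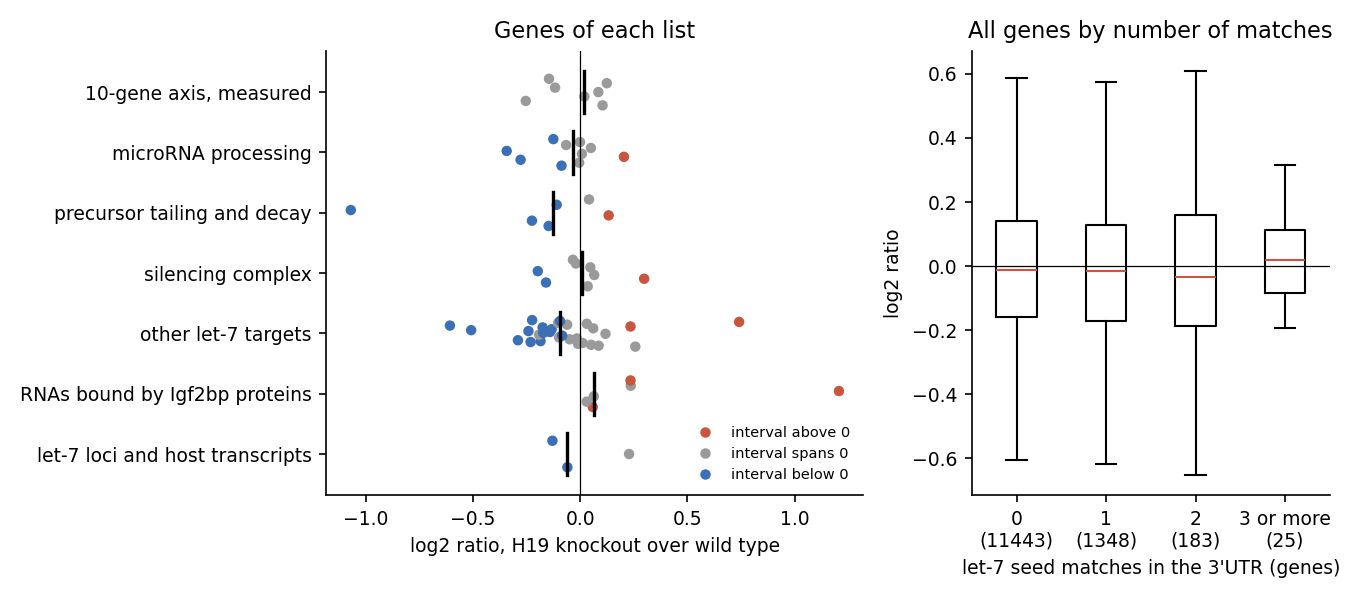
Left, log2 ratios of the measured genes of each list, coloured by whether the 95% interval lay above 0 (red), below 0 (blue) or spanned it (grey), with the list median as a black bar; H19 is left out of the drawing but not of the median. Right, log2 ratios of measured genes by number of let-7 matches in the 3′UTR, with gene numbers in parentheses, boxes for quartiles and whiskers to the farthest value within 1.5 interquartile ranges; the 4 medians lie between -0.03 and 0.02.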

How the data were processed

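Total RNA of the 2 ovary libraries was depleted of ribosomal RNA and sequenced in 76-base paired ends, per the labels' protocols. The deposited values are whole-number counts per gene symbol made by the authors. The submitters' processing notes name STAR 2.5.0a, Cufflinks 2.2.1, DESeq2 1.0.0 and mm10. Which program counted reads, over which gene models and with which strand setting, is not given in the sources used here. Median-of-ratios size factors of both libraries were exactly 1; whether the authors rescaled before rounding cannot be told from the values, and intervals would then not hold at the stated level.

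TMM scaling used edgeR 4.0.16. To each scaled count 0.5 was added before taking log2 ratios, which carry 95% Clopper-Pearson intervals of the conditional binomial. Gene models, 3′UTRs and sequences came from GENCODE M21, which held 23358 of the 24421 symbols and all 10 members. Also tried were scaling by totals or by median of ratios (DESeq2 1.42.0), other minimums, limits, lengths and match definitions. Genes were named if members, H19, let-7 loci or, in each pathway list, among the 4 highest in mean CPM or the 4 with intervals farthest from 0; not all of these are printed. Members and lists were chosen with earlier results of these data known. On counts simulated with Poisson error alone, 95.4% of 13928 intervals held the true ratio. That checks the computation of the intervals and not spread between mice or preparations. Python 3.11.15, scipy 1.17.1 and R 4.3.3 were used. A row related to one member is not reported here.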

Additional observations from a re-analysis of the deposited data

How the results depend on the processing

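Of 234 values under alternatives, 223 stayed within a set tolerance. That was the counting interval for a single member and 1.5 times for a count. For a median it was a shift no larger than the counting error of a typical single gene. This is wide for a median, which could change sign and still stay within it. The 36 single-member values kept their sign. Without a minimum level, 1 member had an interval above 0, Igf2bp1. By the mean of genes, the median being the reported value, the lists gave -0.23 for precursor tailing and decay, -0.85 for RNAs bound by Igf2bp proteins, where H19 enters at its bound, and 0.0129 for let-7 loci and hosts; the last gave -0.13 with no minimum. Among other let-7 targets, 4 genes lay above 0 under total count scaling and 1 with a minimum of 5 CPM. Of 68 medians, 5 changed sign: those of the silencing complex (median-of-ratios), Igf2bp-bound RNAs and let-7 loci (mean), 2 matches (8-base matches only) and 3 or more (minimum of 5 CPM). Class medians by number of matches stayed between -0.05 and 0.07. With the 10 highest genes left out of library totals, Lin28b reached the minimum and the members' median was 0.06. No paired analysis was possible because WT and H19KO are single libraries, and so no replicate could be left out. Depth limits the 4 members under 5 CPM, as intervals at that level had a median width of 1.16 on the log2 scale.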

Other observations

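Genes with 4 or more let-7 matches in the 3′UTR form a small set of 12, of which 9 are outside the let-7 axis described here, and these 9 were all measured. The set was drawn up after the counts had been seen. In 7 of the 9 the interval spanned 0. Over all measured genes 46.2% had an interval wholly above or below 0, and 42.0% of those at 5 to under 50 CPM. Nr6a1, which encodes the orphan receptor GCNF, held 8 matches and had 450 counts in WT and 429 in H19KO, a log2 H19KO/WT of -0.06 (-0.26 to 0.13). Mcf2l, a guanine nucleotide exchange factor gene, held 7 matches, all of 8 bases, and had 675 and 612 counts, a log2 H19KO/WT of -0.13 (-0.29 to 0.03). It held 0 matches in the 3′UTR of its transcript with the longest coding sequence, so its place in the set rests on the choice of 3′UTR. The other 2 of the 9 went opposite ways. Zbtb37, a zinc finger gene, was higher, with 569 and 705 counts and a log2 H19KO/WT of 0.32 (0.16 to 0.48), and Trim71 was lower, as given above. The 4 matches of Zbtb37, 0 of them of 8 bases, lay in a 3′UTR of 16999 bases. D10Wsu102e, also in the set, had a 3′UTR of 122583 bases, so the set is not matched for length.

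Arid3c, a relative of Arid3a and Arid3b, had 7 counts in WT and 0 in H19KO, both libraries lying well under 1 CPM.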
